A study of Mus musculus with 12 samples.

Results

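The genes described here are 7 stimulus-induced transcription factors in sorted hematopoietic stem cells (HSCs), the cells that sustain all blood lineages: Klf2, Klf4, Klf6, Klf10, Nr4a1, Nr4a2 and Nr4a3. They were chosen by name from the 27179 genes of the count table, after the gene numbers had been matched to RefSeq mouse symbols, and all 7 were found. Total RNA of the sorted cells was sequenced from 12 C57BL/6J mice, with 1 library per mouse and 3 mice in each of 4 genotypes. Group WT holds wild-type mice (WT2, WT3 and WT4). Group E holds Emu-myc mice with intact caspases (E1, E2 and E3), whose Myc transgene is driven by an immunoglobulin heavy chain enhancer, which is active in B lineage cells. Group C holds mice without Casp1 and Casp11 (C1, C2 and C3), the inflammatory caspases of pyroptosis. Group CE holds Emu-myc mice that also lack both caspases (CE1, CE2 and CE3). Ages, batches and the surface markers of the sort are not stated in the sources used here.

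Krüppel-like factors (KLFs) bind GC-rich DNA through a run of C-terminal zinc fingers. KLF2 keeps lymphocytes quiescent and controls their trafficking, KLF4 acts in pluripotency and in monocytes, KLF6 is induced by injury and growth stimuli, and KLF10 is an early target of TGF-beta. The NR4A proteins are orphan nuclear receptors that act without a known physiological ligand, so that their activity follows the induction of their genes. Nr4a1 and Nr4a3 restrain HSC proliferation in mice, and joint loss of both gives acute myeloid leukemia in mice. Several of these genes are immediate early genes, whose transcripts rise within minutes of a stimulus such as calcium, cAMP, growth factors or shear stress, and also during the isolation of cells from tissue.

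The promoters of the members that differed most between libraries are shown because these genes were high or low in largely the same libraries. Each window runs from 250 bases before to 50 bases after the annotated RefSeq start (GRCm38.p6), and 6 of the 7 members had an entry. The search covered the core TGACG of the cAMP response element, the full element TGACGTCA, the NBRE to which NR4A monomers bind (AAAGGTCA), the CArG box, the MEF2 site and the GC box GGGCGG, each on both strands. Capitals mark TGACG, or its reverse complement CGTCA, and MEF2 sites.
Nr4a1 promoter (chr15:101266596-101266895, plus strand): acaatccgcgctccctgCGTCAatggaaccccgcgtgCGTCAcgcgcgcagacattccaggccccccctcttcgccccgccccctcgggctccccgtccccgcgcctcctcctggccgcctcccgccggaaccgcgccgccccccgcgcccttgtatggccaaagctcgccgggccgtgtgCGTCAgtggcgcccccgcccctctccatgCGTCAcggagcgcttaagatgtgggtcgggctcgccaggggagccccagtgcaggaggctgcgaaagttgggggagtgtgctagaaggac
Nr4a2 promoter (chr2:57123954-57124253, minus strand): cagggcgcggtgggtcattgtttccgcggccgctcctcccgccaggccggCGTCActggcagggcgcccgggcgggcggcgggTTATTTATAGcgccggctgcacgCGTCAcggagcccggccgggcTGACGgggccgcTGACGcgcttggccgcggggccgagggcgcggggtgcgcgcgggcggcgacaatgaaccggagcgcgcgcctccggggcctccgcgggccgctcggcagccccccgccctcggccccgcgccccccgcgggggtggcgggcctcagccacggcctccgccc
Klf2 promoter (chr8:72318812-72319111, plus strand): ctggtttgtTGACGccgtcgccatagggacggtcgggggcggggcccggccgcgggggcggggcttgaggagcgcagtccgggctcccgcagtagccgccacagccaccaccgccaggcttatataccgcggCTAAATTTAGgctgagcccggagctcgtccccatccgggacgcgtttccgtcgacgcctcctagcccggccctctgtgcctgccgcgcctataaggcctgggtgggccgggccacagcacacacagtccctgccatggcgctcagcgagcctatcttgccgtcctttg
Klf4 promoter (chr4:55532426-55532725, minus strand): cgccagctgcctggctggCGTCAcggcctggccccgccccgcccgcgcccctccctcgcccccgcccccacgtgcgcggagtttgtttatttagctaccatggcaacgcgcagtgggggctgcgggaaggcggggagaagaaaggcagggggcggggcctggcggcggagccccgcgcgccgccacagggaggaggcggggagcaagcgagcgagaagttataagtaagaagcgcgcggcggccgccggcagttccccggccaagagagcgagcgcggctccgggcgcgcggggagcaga
Klf6 promoter (chr13:5861239-5861538, plus strand): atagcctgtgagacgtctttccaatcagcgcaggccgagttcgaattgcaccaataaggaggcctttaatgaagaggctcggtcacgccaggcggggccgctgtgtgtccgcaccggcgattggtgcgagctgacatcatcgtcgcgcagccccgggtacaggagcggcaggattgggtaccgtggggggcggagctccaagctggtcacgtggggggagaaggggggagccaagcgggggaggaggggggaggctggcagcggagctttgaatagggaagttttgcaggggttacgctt

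All 3 NR4A promoters held 4 copies of the TGACG core, a number reached by 0.232% of all 32817 promoters and by 0.558% of the 9678 promoters with at least 60% GC. Klf2 and Klf4 held 1 copy each and Klf6 none, where 20.8% of all promoters held at least 1. A MEF2 site stood in the Klf2 and Nr4a2 windows, against 3.19% of all promoters. The GC box stood in all 6 windows, against 35.6% of all promoters. The full cAMP response element, the NBRE and the CArG box had no match in any of the 6 windows, and 1.79%, 1.51% and 1.63% of all promoters held them. The GC content of the 6 windows was 63.0 to 81.7%, against a median of 52.7% over all promoters. A match of letters does not show that a factor binds there. Of the genes not shown, Klf10 lies at chr15:38291464-38300711 and Nr4a3 at chr4:48045078-48086447.

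Libraries held 24529611 to 34065910 counts. Casp1 was at 29.8 to 47.8 CPM (counts scaled to a common effective library size) in the 6 libraries of WT and E and at 5.10 to 6.76 CPM in the 6 of C and CE, as the labels state. Casp4, the annotated name of Casp11, was at 7.07 to 13.7 CPM in C and CE and overlapped WT and E, where it reached 17.2 CPM. By edgeR it fell with caspase loss on average (log2 change -0.49 with SE 0.13, adjusted p = 0.0189). Every C library lay below every WT library, but that comparison did not pass (adjusted p = 0.11). Myc was at 319 to 449 CPM in all libraries and did not check the transgene label. All 15 HSC and progenitor markers were present in every library, with a summed level of 2319 to 3116 CPM. Most of the sum came from Cd34, at 859 to 1157 CPM, Kit and Flt3. Slamf1 was at 3.38 to 5.05 CPM, Fgd5 at 5.54 to 13.9 CPM and Procr at 8.28 to 18.4 CPM. The sum therefore does not tell HSCs from progenitors. The 10 neutrophil genes, which include Mpo and Elane of myeloid progenitors, summed to 7689 CPM or more in every library. Y-linked transcripts summed to 91.4 CPM or more in all C libraries and in CE1 and CE2, and to 0.263 CPM or less in the other 7 libraries, so sex and caspase genotype nearly coincide and cannot be told apart except through CE3. C1 and C3 had a count for 22900 and 21247 genes, against 17310 to 18863 in the others. WT4 stood apart from WT2 and WT3 for most of the members, so the members' tests that use WT4, and the list counts that its removal moves most, are given with and without it.

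Klf2, Klf4 and Klf6 were higher in HSCs that lacked the caspases than in HSCs that had them, and Klf10 did not pass the test. Averaged over both transgene states, Klf4 was 2.58-fold higher (log2 change 1.37 with SE 0.16, adjusted p = 0.000585), Klf6 2.14-fold higher (log2 change 1.09 with SE 0.19, adjusted p = 0.00354) and Klf2 1.97-fold higher (log2 change 0.98 with SE 0.26, adjusted p = 0.018). Nr4a1 was 1.66-fold higher (log2 change 0.74 with SE 0.24, adjusted p = 0.0407). These 4 were the members that rose among the 6 that passed the filter on low counts, and none fell. Of all 14473 genes tested, 9.26% rose and 11.8% fell in the same comparison. The calls are from edgeR's quasi-likelihood test over all 12 libraries, with Benjamini-Hochberg adjustment over all genes tested and a threshold of 0.05. Without C1 and C3 together, the 2 libraries with the most genes detected, Klf4 still passed on average and Klf2 (adjusted p = 0.142), Klf6 (adjusted p = 0.0884) and Nr4a1 (adjusted p = 0.198) did not.

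**Figure D1:**
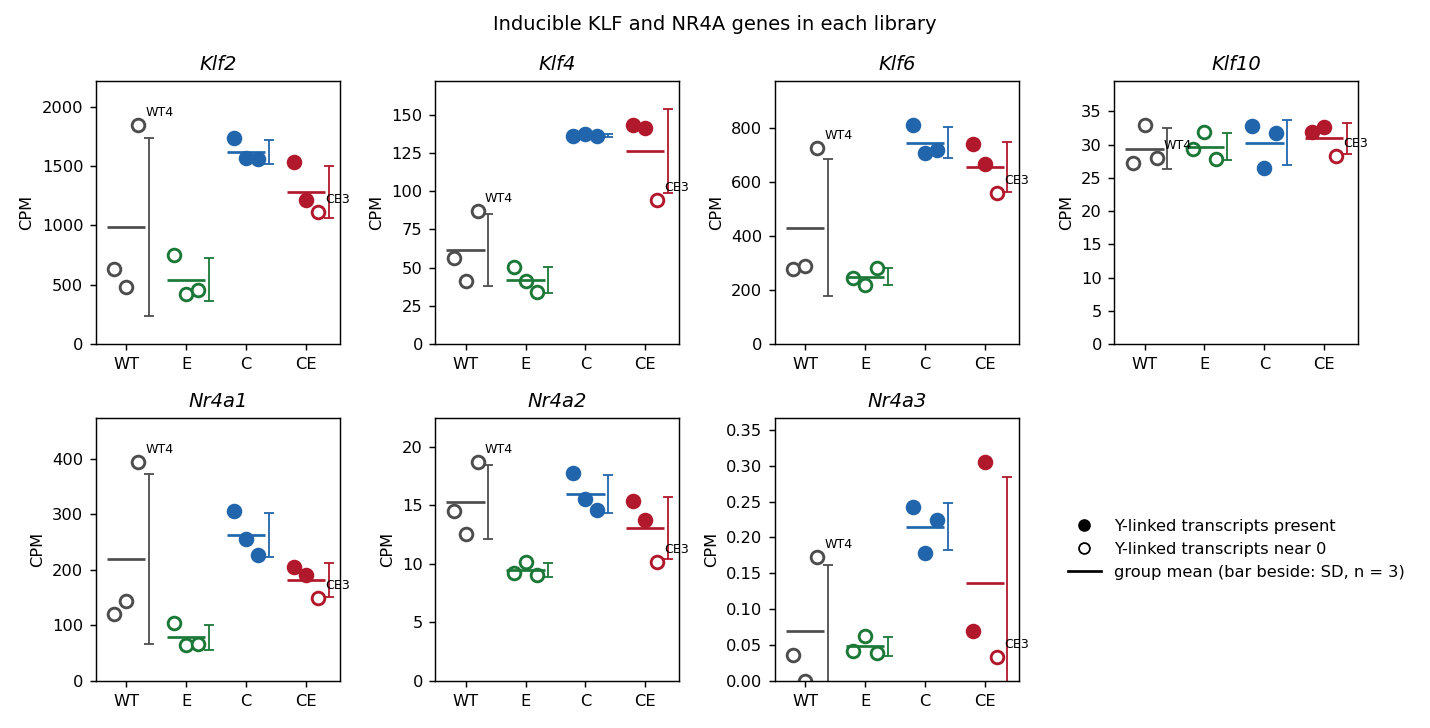
Level of each gene in CPM (vertical axes, linear from 0) in the 12 libraries by group, with the group mean as a line and the SD (n = 3) as a bar beside it. Open circles are libraries with Y-linked transcripts near 0. For Klf2, Klf4 and Klf6 the C and CE libraries lie above the E libraries and above WT2 and WT3, WT4 lies well above WT2 and WT3, and Klf10 stays between 26.4 and 33.0 CPM in all 12.

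Klf4, a factor of monocyte differentiation and of the pluripotency network, separated the caspase genotypes completely. It was at 56.4, 41.4 and 87.1 CPM in WT2, WT3 and WT4 and at 50.7, 41.2 and 34.0 CPM in E1, E2 and E3. Without the caspases it reached 135.9, 137.5 and 135.8 CPM in C1, C2 and C3, then 143, 141 and 94.3 CPM in CE1, CE2 and CE3. Every library without the caspases lay above every library with them, with CE3 the lowest of the former and WT4 the highest of the latter. The share of genes tested that separated this way was 3.45%. Klf4 rose 2.22-fold in C against WT (log2 change 1.15 with SE 0.22, adjusted p = 0.046). It rose 3.01-fold in CE against E (log2 change 1.59 with SE 0.23, adjusted p = 0.0118). The pair of comparisons shares no library, but both come from the same fit. Sex coincided completely with caspase genotype in C against WT, and in CE against E it did so except in CE3. The call in C against WT ended without C1, C2, C3 or WT2 (adjusted p = 0.126, 0.0887, 0.246 and 0.203) and without C1 and C3 together (adjusted p = 0.81), and held without WT4 (log2 1.49, adjusted p = 0.00114) and WT3. The call in CE against E ended without CE1, CE2 or E2 (adjusted p = 0.0753, 0.0958 and 0.0504), with the log2 change between 1.45 and 1.76 over all 6 removals.

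Klf4 is also expressed by monocytes. The 10 macrophage and monocyte markers examined summed to 368 to 551 CPM in WT, 337 to 441 in E, 374 to 423 in C and 338 to 501 in CE, and none was at 0 in any library. Most of this sum came from Ly6c2, at 140 to 308 CPM, and Csf1r, at 97.7 to 167 CPM, with C1qa at 6.93 CPM or less. None of the 10 rose with caspase loss on average and 5 fell, with a median log2 change of -0.57. Endothelial cells express Klf2 and Klf4 strongly. The 10 endothelial and stromal markers summed to 157 to 172 CPM in WT, 167 to 195 in E, 161 to 171 in C and 167 to 176 in CE, with Cdh5 and Lepr at 0 in some libraries. Most of this sum came from Pecam1, at 140 to 171 CPM, while Cdh5 was at 2.21 CPM or less and Stab2 at 3.29 CPM or less. The sum therefore mainly follows Pecam1 and does not measure endothelial content. None of the 8 tested rose on average and 1 fell. Other cell types moved with caspase loss as well. Of 10 basophil, eosinophil and mast cell markers 6 fell and none rose (median log2 -0.83, with Prg2 at -1.98), and the list summed to 386 to 504 CPM in WT, 285 to 474 in E, 274 to 327 in C and 235 to 282 in CE. Among T and NK markers 3 of 8 tested fell, among erythroid markers 2 of 9, and among neutrophil and megakaryocyte markers 1 of 9 and 1 of 10. Of 9 B lineage markers 1 rose, Igll1, and among HSC markers Fgd5, Procr and Hlf rose. Their part in the KLF and NR4A values was not tested.

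Klf2, the quiescence factor of lymphocytes, was at 631, 479 and 1847 CPM in WT2, WT3 and WT4 and at 749, 424 and 457 CPM in E1, E2 and E3. Without the caspases it reached 1736, 1566 and 1558 CPM in C1, C2 and C3, then 1530.4, 1212 and 1112 CPM in CE1, CE2 and CE3. WT4 was the highest of all 12 libraries, 3.33-fold over the mean of WT2 and WT3, while the CE libraries all lay above the E libraries. Klf4, Klf6 and Nr4a1 were separated in the same way in CE against E, as were 14.8% of all genes tested. Neither caspase comparison passed for Klf2, with log2 0.72 in C against WT (SE 0.37, adjusted p = 0.252) and log2 1.24 in CE against E (SE 0.37, adjusted p = 0.08). Without WT4 it passed in C against WT (log2 change 1.56 with SE 0.22, adjusted p = 0.00203).

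Klf6, an early growth response and injury factor, was at 279, 291 and 726 CPM in WT2, WT3 and WT4 and at 244, 221 and 283 CPM in E1, E2 and E3. Without the caspases it reached 812, 708 and 719.6 CPM in C1, C2 and C3, then 743, 667 and 561 CPM in CE1, CE2 and CE3. WT4 lay within the range of group C, and WT2, WT3 and the E libraries fell together between 221 and 291 CPM. Klf6 rose 2.64-fold in CE against E (log2 change 1.40 with SE 0.28, adjusted p = 0.0398). The comparison of C with WT did not pass (log2 change 0.79 with SE 0.27, adjusted p = 0.106), and without WT4 it did (log2 change 1.40 with SE 0.14, adjusted p = 0.000125). The call in CE against E ended on removal of any one of CE1, CE2, CE3, E1, E2 and E3 (adjusted p = 0.0670 to 0.188), with a log2 change of at least 1.30 each time.

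Klf10, the TGF-beta-inducible member, was at 27.2 to 33.0 CPM in the WT libraries and at 29.3, 31.9 and 27.9 CPM in E1, E2 and E3. C1, C2 and C3 had 32.8, 26.4 and 31.7 CPM and CE1, CE2 and CE3 had 31.9, 32.7 and 28.3 CPM. All 4 groups overlapped and WT4 lay between WT2 and WT3. The average difference by caspase genotype was log2 0.05, with a 95% interval of -0.12 to 0.23, which does not include a change as large as that of Klf2, Klf4, Klf6 or Nr4a1.

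In C against WT 1 of 6 tested members rose, Klf4, against 0.359% of all genes, and in CE against E 2 rose, Klf4 and Klf6, against 0.477%. Without WT4, 4 members rose in C against WT, Klf2, Klf4, Klf6 and Nr4a1, against 8.02% of all genes. The average over both transgene states then gave 5, with Nr4a2 added, against 15.6%. WT4 is in neither group of CE against E, but enters its fit through the shared spread, the normalisation and the low-count filter (14891 genes tested without it). Leaving it out kept the log2 changes of the members and narrowed their error, and 4 members then rose, against 4.67% of all genes, with Klf2 (log2 change 1.24 with SE 0.19, adjusted p = 0.004) and Nr4a1 (log2 change 1.21 with SE 0.18, adjusted p = 0.004) added.

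**Figure D2:**
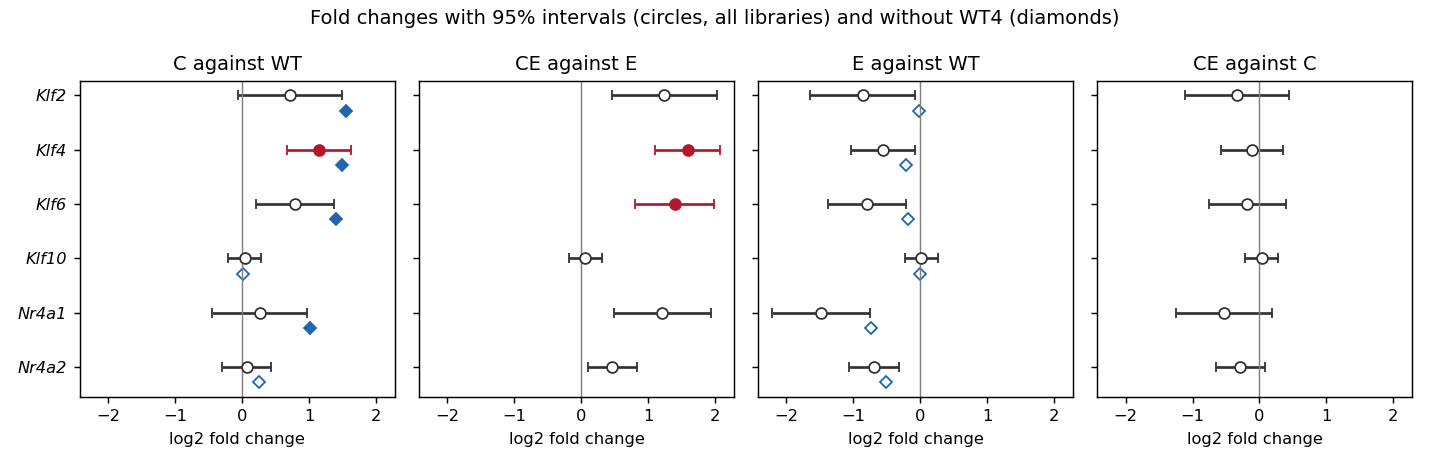
Log2 fold change (horizontal axes) of the 6 tested members in 4 comparisons, with 95% intervals from the fit of all 12 libraries (circles) and the value without WT4 (diamonds, drawn in the comparisons that use WT). Filled symbols passed at an adjusted p under 0.05. Without WT4 Klf2, Klf4, Klf6, Nr4a1 and Nr4a2 move up in C against WT, where Klf2 goes from 0.72 to 1.56, and towards 0 in E against WT, where Klf2 goes from -0.86 to -0.02, while Klf10 stays near 0 in both.

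Sex was measured as the presence of Y-linked transcripts. CE3, the only caspase-deficient library without them, lay above all 3 E libraries and above WT2 and WT3 for Klf2, Klf4, Klf6 and Nr4a1, and below the other CE libraries for all 6 tested members. Among the 7 libraries without Y-linked transcripts, CE3 against E gave log2 1.16 for Klf4 (SE 0.32, adjusted p = 0.445), 1.16 for Klf6 (SE 0.41, adjusted p = 0.445), 1.03 for Klf2 (SE 0.56, adjusted p = 0.47) and 0.91 for Nr4a1 (SE 0.51, adjusted p = 0.475). Here CE3 alone stands for its group and is assumed to vary like the others. With a covariate for Y-linked transcripts in the fit of all libraries, the average caspase difference was log2 0.86 for Klf4 (adjusted p = 0.178), 0.82 for Klf6 (adjusted p = 0.257), 0.72 for Klf2 (adjusted p = 0.448) and 0.38 for Nr4a1 (adjusted p = 0.673). WT, E and C each had 1 state of Y-linked transcripts, so this covariate was estimated only from CE3 against CE1 and CE2. No member passed in either setting. The 5 libraries with Y-linked transcripts held no caspase-intact group.

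Nr4a1, also known as Nur77, was at 121, 143 and 395 CPM in WT2, WT3 and WT4 and at 105, 65.4 and 66.0 CPM in E1, E2 and E3. C1, C2 and C3 had 307, 256 and 227 CPM, and CE1, CE2 and CE3 had 206, 191 and 149 CPM. Every E library lay below every WT library, every CE library below every C library, and every CE library above every E library. WT4 was the highest of all 12, against a mean of 132 CPM in WT2 and WT3. In CE against E the difference in Nr4a1 did not pass (log2 change 1.21 with SE 0.34, adjusted p = 0.0715), nor did C against WT (log2 change 0.26 with SE 0.33, adjusted p = 0.68). Without WT4 the latter passed (log2 change 1.01 with SE 0.20, adjusted p = 0.00841). The average caspase call of Nr4a1 ended on removal of any 1 library other than CE3, E1 or WT4, with adjusted p between 0.0645 and 0.0936, and by DESeq2 (adjusted p = 0.0769).

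With the transgene, Nr4a1 was lower in both caspase backgrounds by amounts that did not pass, at log2 -1.48 in E against WT (SE 0.34, adjusted p = 0.248) and log2 -0.53 in CE against C (SE 0.33, adjusted p = 0.999). Without WT4 the value in E against WT was log2 -0.74 (SE 0.19, adjusted p = 0.339). Of all genes tested, 3.56% and 7.86% were separated as lower in these comparisons. The average over both backgrounds was log2 -1.01 (SE 0.24, adjusted p = 0.0901), and without WT4 it passed at a smaller size (log2 change -0.64 with SE 0.13, adjusted p = 0.0366), where 0.416% of all genes passed as lower. With all libraries no member passed in any transgene comparison, where 0.0829% of genes passed in E against WT, 0.207% in CE against C and 0.539% on average (0.352% as lower). The difference between the transgene effects in the 2 backgrounds did not pass for any of the 6 (log2 change 0.95 with SE 0.47, adjusted p = 0.9997 for Nr4a1). By edgeR 0 genes passed this difference, with 305 at an unadjusted p under 0.05, and 0 passed by DESeq2 and by voom. By edgeR without the low-count filter, Nr4a1 did pass (adjusted p = 0.0109). Without WT4 the difference for Nr4a1 was log2 0.20 (SE 0.26), so its size in the full data rests on that library. The 10 B lineage markers summed to 100.3 to 191 CPM in WT, 76.0 to 90.0 in E, 165 to 242 in C and 72.7 to 82.1 in CE, 8 of the 9 tested fell with the transgene on average, and Ms4a1 was at 0 in some libraries. The part of these cells in the Nr4a1 values was not tested, and in such bulk samples fewer cells of a type and less RNA per cell cannot be told apart.

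Nr4a2, also known as Nurr1, was at 14.5, 12.6 and 18.7 CPM in WT2, WT3 and WT4 and at 9.17, 10.1 and 9.01 CPM in E1, E2 and E3. C1, C2 and C3 had 17.8, 15.5 and 14.6 CPM, and CE1, CE2 and CE3 had 15.4, 13.7 and 10.1 CPM. The E libraries lay below all WT libraries, and C and CE overlapped. Nr4a2 did not pass in any comparison with all libraries (log2 change -0.69 with SE 0.17, adjusted p = 0.34 in E against WT, and log2 0.47, SE 0.17, adjusted p = 0.135 in CE against E). Without WT4 its value in E against WT was log2 -0.51 (SE 0.17, adjusted p = 0.506), and it rose with caspase loss on average (log2 change 0.36 with SE 0.11, adjusted p = 0.028). As a description with no test, the deviations of log2 CPM from the group means had r = 0.685 between Nr4a1 and Nr4a2, 0.940 between Klf2 and Nr4a1, 0.888 between Klf6 and Nr4a1 and 0.704 between Klf4 and Klf6 over the 12 libraries. Those of Klf10 with the other 5 lay between -0.23 and 0.16. WT4, far from its group mean for most members, enters all of these values.

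Nr4a3, also known as NOR1, was barely detected. WT2, WT3 and WT4 held 1, 0 and 4 reads, and E1, E2 and E3 held 1, 2 and 1. C1, C2 and C3 held 7, 6 and 7 reads, and CE1, CE2 and CE3 held 2, 9 and 1. Nr4a3 did not pass the filter on low counts. All counts over 4 were in caspase-deficient libraries, and those of CE overlapped the other groups. When no filter was applied, its average caspase difference had an adjusted p of 0.225 and a 95% interval of log2 -0.07 to 3.07. It passed in no comparison, and at this depth a difference was not detectable.

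Levels of different genes were compared per transcript length, as TPM, a length-scaled abundance computed here from the counts and the longest annotated transcript. The order was Klf2, Klf6, Nr4a1, Klf4, Klf10, Nr4a2 and Nr4a3 in all 4 groups and held within each of the 12 libraries. In group C the mean TPM was 2098 ± 156 for Klf2, 423 ± 38.3 for Klf6, 246 ± 37.3 for Nr4a1 and 108 ± 3.06 for Klf4 (SD, n = 3). It was 23.9 ± 3.34 for Klf10, 10.7 ± 1.11 for Nr4a2 and 0.0902 ± 0.016 for Nr4a3. In WT the TPM of Klf6 (136 to 346) and Nr4a1 (97.3 to 312) overlapped between libraries, with Klf6 above Nr4a1 in each. Klf4 and Klf10 stood close in E, at 26.2 to 35.7 and 20.5 to 25.9 TPM, and far apart in C, at 104 to 111 and 20.0 to 25.9 TPM.

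**Figure D3:**
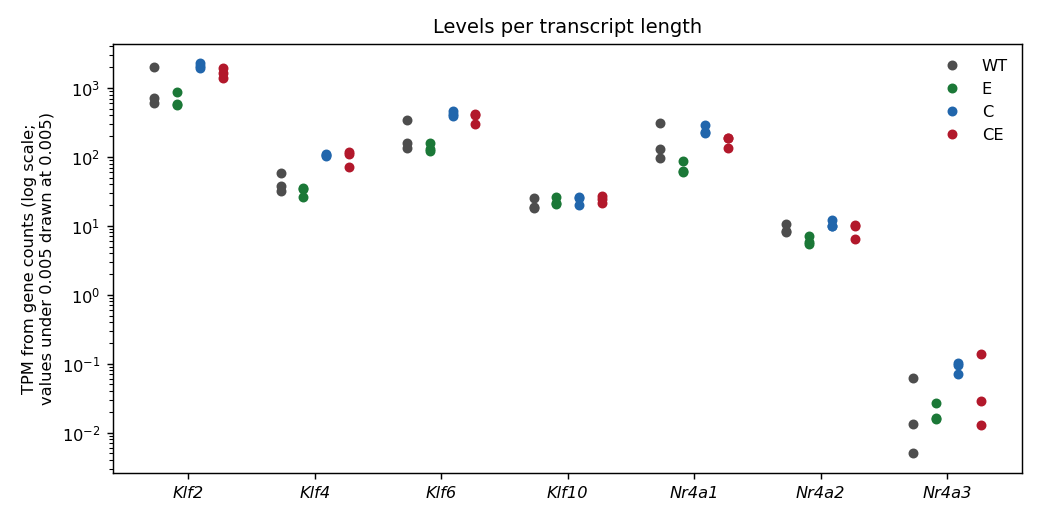
TPM (log axis) of the 7 members in each library, coloured by group. Klf2 lies above all other members in every library, Klf10 keeps 1 level over the groups, and Nr4a3 lies below 0.14 TPM throughout.

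Immediate early genes outside the KLF and NR4A families rose in part with caspase loss. Of the 26 genes of this list, all tested, 14 rose and none fell with caspase loss on average (median log2 0.73, against 0.00 over all genes tested), 9 rose in CE against E (median 0.92) and 1 rose in C against WT (median 0.43). Egr1, a zinc finger factor that maintains HSC quiescence in mice, rose 2.64-fold on average (log2 change 1.40 with SE 0.22, adjusted p = 0.00267). Rhob, a small GTPase (log2 change 0.95 with SE 0.15, adjusted p = 0.00271), and Ier5 (log2 change 0.60 with SE 0.10, adjusted p = 0.00271) rose as well. Fosb, an AP-1 subunit, rose in CE against E (log2 change 1.59 with SE 0.32, adjusted p = 0.0398). Ier3, Cebpd and Gadd45b, named after their values were seen, overlapped between groups, with Cebpd at 39.8 to 44.6 CPM in C and 64.5 CPM in WT2. Without WT4, 20 rose in C against WT, 21 in CE against E and 22 on average (medians 0.98, 0.92 and 1.02).

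The mean log2 level of the list, set to 0 at the mean of WT2 and WT3, was 1.15 in WT4. C1, C2 and C3 reached 1.08, 0.92 and 0.88, and CE1, CE2 and CE3 reached 0.94, 0.74 and 0.65. E1, E2 and E3 were at 0.08, -0.37 and -0.11. WT4 was the highest library by this measure, and CE3, without Y-linked transcripts, lay above WT2, WT3 and the E libraries. Whether the KLF and NR4A differences arose in the marrow or during the isolation of the cells was not tested.

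**Figure D4:**
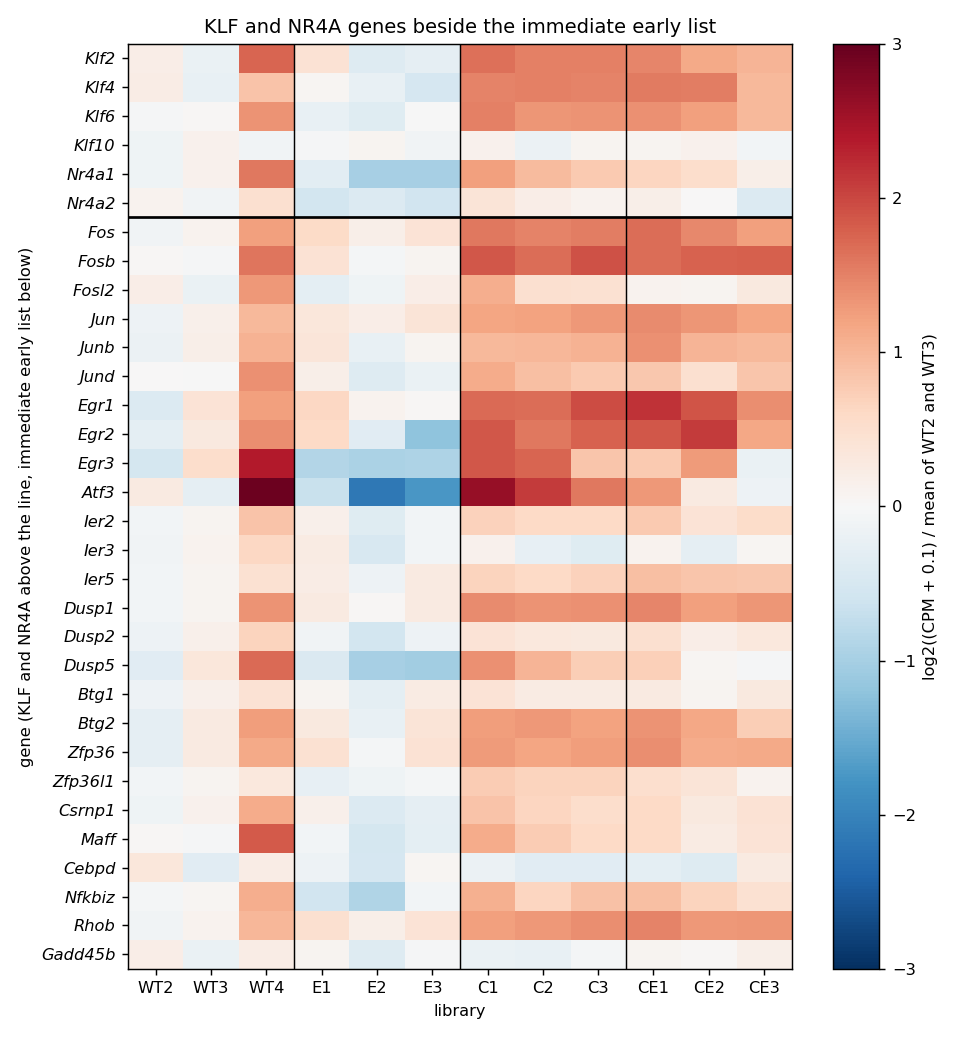
Log2 of (CPM + 0.1) relative to the mean of WT2 and WT3 (colour) for the 6 tested members, above the line, and the 26 immediate early genes, below it, in 12 libraries ordered by group. WT4 and the C and CE libraries are red for most genes, E libraries are mostly near white or blue, and Klf10 is near white throughout.

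The genes most alike to each member were ranked by Pearson's r of log2 CPM over the 12 libraries among 11042 genes. These values rank the genes only and carry no test: they pool 4 groups whose levels differ, and for Klf2, Klf4 and Klf6 the libraries fell into separate sets, with WT4 and the 6 caspase-deficient libraries above the other 5. Of the 18 genes named, 14 were again among the 3 most alike when WT4 was left out. Nr4a1 was closest to Dusp5, a phosphatase of ERK (r = 0.979, rho 0.972), Sik1, a cAMP-induced kinase (r = 0.977, rho 0.979), and Atf3, a stress-induced factor (r = 0.974, rho 0.979). Without E2 and E3, the 2 libraries farthest from the median of Nr4a1, these r were 0.964, 0.966 and 0.952. Nr4a2 was closest to Sde2 (r = 0.950), Tnfaip3, which encodes the NF-kB inhibitor A20 (r = 0.919), and Atf3 (r = 0.914). Klf2 was closest to Med26, a Mediator subunit (r = 0.964), the AP-1 subunit Jund (r = 0.962) and Prkab1, a subunit of AMP-activated kinase (r = 0.958).

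Klf4 was closest to Tob1, an antiproliferative gene (r = 0.963), the co-chaperone gene Dnajb1 (r = 0.962) and Fosb (r = 0.943). Klf6 was closest to Dusp1, a phosphatase of stress kinases (r = 0.970), Fosb (r = 0.961) and Nfkbiz, an atypical NF-kB inhibitor (r = 0.956). Klf10 shared none of these and reached r = 0.852 with Ttf1, 0.806 with Fam135a and 0.798 with Tfdp2. Atf3, close to both Nr4a1 and Nr4a2, was at 19.8, 13.5 and 127 CPM in WT2, WT3 and WT4 and 10.2, 3.64 and 4.82 CPM in E. It was at 100.1, 69.8 and 49.3 CPM in C and 40.3, 19.9 and 14.7 CPM in CE, and fell with the transgene on average (log2 change -2.33 with SE 0.48, adjusted p = 0.0438).

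Genes that act upstream of the members were described as lists. The lists hold genes whatever the sign of their action, so a rise does not show that a pathway was more active. The MEK5, ERK5, MEF2 and class IIa histone deacetylase axis acts upstream of Klf2, Klf4 and Nr4a1. Of its 11 genes 6 rose and none fell with caspase loss on average (median log2 0.28). Map3k3, the kinase at the head of this axis, ranged over 44.3 to 66.3 CPM in the WT and E libraries and over 79.6 to 88.1 CPM in the C and CE libraries, and rose (log2 change 0.47 with SE 0.08, adjusted p = 0.00341). Mef2d (log2 change 0.35 with SE 0.08, adjusted p = 0.00942) and Hdac4 (log2 change 0.63 with SE 0.15, adjusted p = 0.0103) rose too. Of the 16 genes of CREB, its coactivators, calcineurin and NFAT, 6 rose and none fell (median log2 0.15), among them the coactivators Ep300 (log2 change 0.43 with SE 0.08, adjusted p = 0.00354) and Crebbp (log2 change 0.45 with SE 0.10, adjusted p = 0.00693). Of SRF and its 5 cofactors 2 rose, Elk4 and Elk1, and none fell (median log2 0.19), and 4 rose without WT4. Of 12 TGF-beta genes, the pathway known for inducing Klf10, 4 rose and none fell (median log2 0.17), namely Ski, Smad3, Smad4 and Tgfbr2. Without WT4 the counts that rose were 6 of the MEK5 list, 7 of the CREB list and 6 of the TGF-beta list, and 1 gene each of the MEK5 and CREB lists fell.

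Of the 14 tested other members of the KLF and SP family 1 rose, Klf7 (log2 change 0.66 with SE 0.19, adjusted p = 0.0251), and none fell. Without WT4, 4 rose. Of 14 other orphan and retinoid receptors 2 rose, Rxra, a dimer partner of NR4A proteins (log2 change 0.51 with SE 0.11, adjusted p = 0.00752), and Rara (log2 change 0.32 with SE 0.09, adjusted p = 0.0284). Nr1h3, a sterol sensor, fell (log2 change -0.81 with SE 0.19, adjusted p = 0.0102). Without WT4, 7 of these receptors rose and 1 fell. Of 11 genes reported as regulated by KLF2 or KLF4 in other cells 2 rose, Cdkn1c, a cell cycle inhibitor of dormant HSCs (log2 change 0.63 with SE 0.16, adjusted p = 0.0165), and Nos3, at 1.28 CPM or less in every library. Of 11 genes reported as regulated by NR4A receptors 1 rose, Tox (log2 change 0.53 with SE 0.16, adjusted p = 0.0339), and 1 fell, Myc (log2 change -0.31 with SE 0.07, adjusted p = 0.00816). Without WT4 the KLF2 and KLF4 list had 2 that rose, and the NR4A list 2 that rose and 1 that fell.

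Among 19 genes of HSC dormancy and quiescence 8 rose with caspase loss on average and none fell (median log2 0.33). They include Egr1, Foxo3, a factor that preserves quiescent HSCs (log2 change 0.57 with SE 0.11, adjusted p = 0.00473), Rgs1 (log2 change 0.61 with SE 0.15, adjusted p = 0.0146) and Cdk6, which instead promotes exit from quiescence (log2 change 0.62 with SE 0.12, adjusted p = 0.00418). With the transgene 1 of the 19 fell on average, the activation marker Cd69 (log2 change -0.72 with SE 0.14, adjusted p = 0.0281). Of 11 mRNA decay and feedback regulators 7 rose and none fell (median log2 0.48), among them Zfp36l1, Tob1, Dusp1 and Tob2. Zfp36, Zfp36l1, Dusp1 and Btg2 of this list and Egr1 of the dormancy list are also in the immediate early list. The counts of these lists therefore partly repeat the same genes. Without WT4, 12 dormancy genes and 10 decay and feedback genes rose. The percentages of all genes that rose or fell in these comparisons are those given above for the members.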

How the data were processed

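RNA of sorted HSCs was measured in 12 libraries. The authors deposited raw counts per gene by NCBI Gene number. STAR 2.5.3 and mm10 are named in the submitters' processing notes. Of the counter, annotation, strand setting and filters the sources used here give nothing. RefSeq (GRCm38.p6) matched 25275 of 27179 gene numbers to symbols. Libraries held 24529611 to 34065910 counts, and errors come from the spread between mice.

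All 12 libraries entered 1 fit in edgeR 4.0.16 (R 4.3.3), with TMM factors, filterByExpr by group, group means and two-sided quasi-likelihood F tests. The threshold was 0.05 after Benjamini-Hochberg adjustment over 14473 genes, and averages weight the 4 groups equally. In simulated data of 14473 genes, 70.1% of 2-fold changes were recovered in C against WT and in CE against E. The rate was 85.1% in the average caspase comparison, 73.1% in E against WT and 80.6% in CE against C. It was 88.1% in the average transgene comparison and 52.2% for the difference of the transgene effects. For 1.5-fold changes it was 11.9% for that difference and 35.8 to 59.7% in the other comparisons. At the threshold of 0.05 the share of simulated calls that were false was 6.90% in C against WT and 6.62% in CE against E. It was 6.32% in the average caspase comparison, 2.76% in E against WT and 8.23% in CE against C. For the average transgene comparison it was 7.43%, and for the difference 8.93%. Whether these rates hold for the members was not tested. Lists are described by counts and medians. The members, lists, tests and alternatives were chosen with earlier results of these data known. The text names all members, up to 4 genes of a list past the threshold by adjusted p, and the 3 genes most alike to each member among tested genes whose mean log2 CPM was 1 or more. Tests of correlations between members were planned but are not given, since levels differ between groups and libraries form separate sets; within-group deviations are described. TPM used the longest GENCODE M21 transcript. Alternatives were RLE factors, other low-count filters, DESeq2 1.42.0, limma 3.58.1 voom, 2-group fits, a replicate block, a Y-linked covariate and removal of each library. After the data were seen, removal of C1 and C3 together and a fit of the 7 libraries without Y-linked transcripts, list counts without WT4 and CE against E without WT4 were added.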

Additional observations from a re-analysis of the deposited data

How the results depend on the processing

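Counts of calls depended on the setting more than the direction did: no called value of a member reversed, and 37 uncalled values changed sign. In C against WT 95 genes and 1 member passed. The counts were 160 genes with RLE factors, 1554 and 3 members without the low-count filter, 219 with a stricter one, 1195 by DESeq2 and 1773 and 4 by voom. They were 19 and 0 with only the 2 groups, 1 and 0 with the Y-linked covariate, and 4 and 0 without C1 and C3. In CE against E 229 genes and 2 members passed. The counts were 1172 and 4 without the filter, 1182 genes by DESeq2, 1392 and 5 by voom, 843 and 4 with only the 2 groups, 2 and 0 with the covariate, and 2 and 0 among the 7 libraries without Y-linked transcripts. In CE against C 30 genes passed, and 203 without the filter, 66 by DESeq2, 109 by voom, 110 with only the 2 groups, 9 with the covariate and 0 without C1 and C3. In E against WT 12 genes and 0 members passed, and 217 and 5 without the filter, 48 by DESeq2 and 1 with only the 2 groups. For the average transgene effect 78 genes and 0 members passed, and 339 and 5 without the filter, 208 and 1 by DESeq2, and 177 and 1 by voom. For the difference of the transgene effects 0 genes passed, and 39 and 1 member, Nr4a1, without the filter. For the average caspase effect 3042 genes and 4 members passed, and 2 and 0 with the covariate, and 20 and 1 without C1 and C3. The cause was not tested.

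Leaving out 1 library at a time gave 7 to 2258 genes and 0 to 4 members in C against WT, with 2258 and 4 without WT4. It gave 2 to 32 and 0 to 1 in CE against E on removal of a CE or E library, and 1578 and 4 without WT4. It gave 2 to 13 genes in CE against C, 5 to 21 in E against WT, 36 to 109 and 0 to 1 members in the average transgene effect, and 1594 to 4667 and 3 to 5 members in the average caspase effect.

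The replicate block gave 2045 genes and 4 members in C against WT, 1475 and 5 in CE against E, 47 genes in CE against C and 28 and 1 in E against WT, and 1 member in the average transgene effect, Nr4a1. Number 4 occurs only in WT4, so the block fits that library exactly and takes it out of the comparisons. These counts are therefore not separate from those without WT4. The labels share only numbers: of 15 same-numbered pairs of libraries, 4 had deviations from their group means correlated over 0.1 (range -0.24 to 0.17).

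With 3 mice a group, sex nearly coinciding with caspase genotype and WT4 apart from WT2 and WT3, the caspase calls of Klf2, Klf4, Klf6 and Nr4a1 rest on few independent libraries. Nr4a3 had 9 reads or fewer in every library and passed in no comparison.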
